A study of Drosophila melanogaster with 9 samples.

Results

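Larvae of Drosophila melanogaster with 1 working copy of Atg6 were compared with the w118 wild type across the transcriptome of the whole animal. The 6 libraries compared, 3 heterozygotes and 3 wild types, are taken from 9 in the study, which also sequenced 3 libraries of larvae with 0 working copies. Both genotypes share the w118 background, standard food at 25 °C and the wandering stage of the third instar, and the heterozygotes are labelled Atg6-/+ with the allele named Atg6D. RNA of whole larvae was isolated with a Qiagen RNeasy kit, made into strand-specific Illumina libraries and read as pairs of 75 bases. The labels do not say how many larvae or which sexes went into a library, whether the libraries came from separate cultures, or from which stock the heterozygotes' X chromosomes came. The p-values below therefore measure the spread between these libraries, which may be technical, and sequence variants of the mutant stock and the missing copy of Atg6 cannot be told apart. Of 15809 loci in the deposited table, 10887 reached 1 FPKM (fragment counts corrected for transcript length and sequencing depth) in at least 3 of the 9 libraries, and all of these are described here.

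Atg6 is the fly Beclin 1, a core subunit of the complex in which the lipid kinase Vps34 (Pi3K59F) makes phosphatidylinositol 3-phosphate on membranes. With Atg14 the complex acts at the forming autophagosome, and with Uvrag it acts on endosomes. In the late larva the steroid hormone ecdysone sets off autophagy in the fat body and other tissues ahead of metamorphosis. The heterozygote gives the larval transcriptome at a lowered, rather than absent, dose of this subunit.

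The libraries were alike in scale and unequal in likeness. FPKM summed to 754677 to 1099060 per library, median-of-ratios factors were 0.998 to 1.01, and 19.0 to 24.2% of a sum lay in its 10 highest loci. Absolute depth is unknown from FPKM, and depth relative to wild type 1 ran from 0.789 to 1.28. The heterozygotes correlated with each other at 0.977 to 0.990 on log2(FPKM + 1) across loci, whereas the wild types correlated at 0.932 to 0.971. Wild types 1 and 2 correlated at 0.932 with each other, and at 0.971 and 0.968 with wild type 3. With heterozygotes 1, 2 and 3 wild type 2 correlated at 0.984, 0.981 and 0.976. Wild type 1 correlated with them at 0.914, 0.953 and 0.951. An exact 0 in the table need not mean that no RNA was there, since the larval serum protein gene Lsp1beta was listed at 0 in heterozygote 3 and at 6137 to 14821 FPKM in the other 5 libraries.

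Few loci separated the heterozygote from the wild type. Changes are differences of mean log2(FPKM + 1) with their standard error (SE), tested with limma on the 9 libraries and adjusted over all tested loci by the Benjamini-Hochberg method, with a threshold of 0.05. Because 1 is added to each value, this scale understates changes of weak genes. Past the threshold were 23 loci, which is 0.211% of those tested, of which 16 (0.147%) rose and 7 (0.0643%) fell. Without 1 library at a time the count was 12 without wild type 1, 31 without wild type 2, 9 without wild type 3, 10, 9 and 10 without heterozygotes 1, 2 and 3, and 20, 27 and 12 without homozygotes 1, 2 and 3. The number that fell was 1 without wild type 1, wild type 3 or any heterozygote, 2 without homozygote 3 and 13 without wild type 2. In all 9 of these fits 9 loci stayed past the threshold, namely yellow-d2, pncr009:3L, CG32641, CR42861, CG32640, CG13822, GstT3, CG3434 and CG34026. With only the 6 compared libraries fitted, 8 loci passed, which are these 9 without CG34026, and the remaining calls passed only with the homozygote libraries in the fit. With a pseudocount of 0.1 in place of 1, all 7 falls and the rises of CR40469 and Pa1 no longer passed. For comparison, 2396 loci (22.0%) were past the threshold in the homozygote against the same wild types.

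Across all tested loci the median difference was −0.0005, with the 5th and 95th percentiles at −0.55 and 0.54 and a median SE of 0.16. A difference of at least 1, which is 2-fold, was seen at 294 loci, 162 higher and 132 lower, and 17 of these were past the threshold. The libraries of the 2 genotypes did not overlap at 1571 loci (14.4%), 898 higher (8.25%) and 673 lower (6.18%), and an unadjusted p under 0.05 was found at 622 loci (5.71%), of which 369 were higher (3.39%) and 253 lower (2.32%). These shares are the background against which the counts in gene lists below are read, and the list members named below as examples were chosen after their values were seen. Members of a list were read in the same 6 libraries, so that a count of members is not a count of separate observations. All 23 loci past the threshold were free of overlap, and the smallest difference among them was 0.62 in size.

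**Figure D1:**
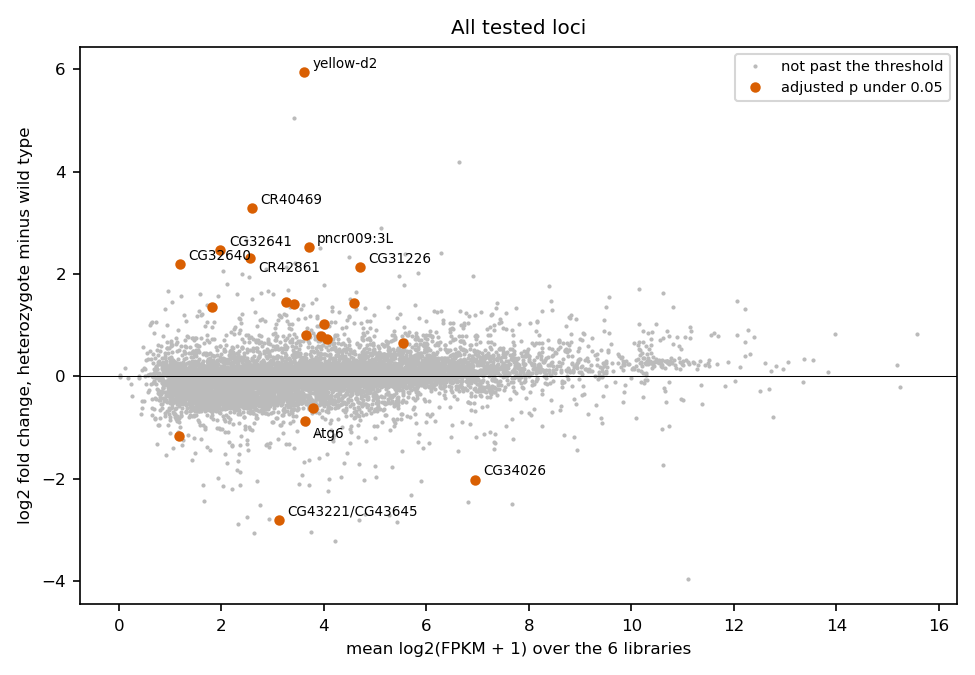
Each point is a tested locus, with its mean log2(FPKM + 1) over the 6 libraries on the horizontal axis and the log2 fold change, heterozygote minus wild type, on the vertical axis; orange points have an adjusted p under 0.05, and loci listed at 0 in every library of a genotype, CG42578 and snoRNA:Psi28S-1135a among them, are not drawn. Most points lie close to 0 at every level, yellow-d2 lies highest at 5.94, and many grey points lie as far from 0 as the orange ones.

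Atg6 itself fell. It had 16.1, 14.3 and 17.04 FPKM in wild type larvae and 7.58, 7.98 and 8.89 in heterozygous larvae, which is 51.6% of the wild type mean. No heterozygote reached the lowest wild type. The log2 change was −0.88 (SE 0.10, adjusted p = 0.0177). The call needed wild types 1 and 3, each heterozygote and homozygote 3, and leaving out any of them ended it (adjusted p up to 0.137), as did fitting only the 6 libraries (adjusted p = 0.0762) and a pseudocount of 0.1 (adjusted p = 0.207).

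Both genes that adjoin Atg6 rose. Atg6 lies on chromosome arm 3R at 24049180-24050782 on the minus strand, and CG5991 (Pisd), a mitochondrial phosphatidylserine decarboxylase, starts at the next base, at 24050783-24053592 on the plus strand. Pisd had 11.5, 12.6 and 11.95 FPKM in wild type larvae and 20.9, 19.7 and 21.5 in heterozygous larvae, a change of 0.74 (SE 0.08, adjusted p = 0.0179). CG5986, at 24047790-24049168 on the other side of Atg6, had 34.9, 36.4 and 37.8 FPKM in wild type larvae and 57.5, 58.3 and 56.5 in heterozygous larvae, a change of 0.65 (SE 0.07, adjusted p = 0.0177). At both genes every heterozygote lay above every wild type. Both calls ended on leaving out wild type 1 or 3, a heterozygote or homozygote 3 (adjusted p up to 0.150 for Pisd and 0.137 for CG5986). They also ended with only the 6 libraries fitted (adjusted p = 0.0623 and 0.0629), and that of CG5986 after quantile normalization.

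The rest of the neighbourhood did not pass the threshold. Of the 11 other loci within 20 kb of Atg6, all tested, Pisd and CG5986 passed it and the remainder differed by −0.37 to 0.12. At the ends of that range were Hsp68, an inducible heat shock protein, with 33.3, 37.1 and 24.4 FPKM in wild type larvae and 26.7, 20.9 and 24.4 in heterozygous larvae, and Rox8, an RNA-binding protein whose annotation overlaps CG5986, with 56.3, 56.9 and 58.4 against 68.4, 62.1 and 57.3. Miro, a mitochondrial transport GTPase, had 29.8, 26.8 and 26.7 FPKM against 28.0, 27.4 and 28.4. The locus that holds white, an eye pigment transporter gene, is merged with CG32795. It had 29.4, 49.1 and 32.5 FPKM in wild type larvae and 75.8, 61.0 and 57.0 in heterozygous larvae, without overlap. It was not past the threshold (0.81, SE 0.22, adjusted p = 0.489). The homozygotes, with 86.6, 58.3 and 70.1 FPKM, were past it against the wild types (0.95, adjusted p = 0.0263).

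The largest change was in yellow-d2, a member of the yellow gene family of secreted proteins, on 2R at 23381197-23382591. It had 0.394, 0.709 and 0.592 FPKM in wild type larvae and 45.7, 134 and 139 in heterozygous larvae. Every heterozygote was many times higher than any wild type, and the means differed 188-fold. The change was 5.94 (SE 0.51, adjusted p = 0.00467), and in the homozygotes, with 91.6, 255 and 246 FPKM, it was 6.85 (adjusted p = 0.000208). Its neighbour yellow-d, 759 bases away, had 10.5, 24.3 and 8.53 FPKM in wild type larvae and 19.8, 13.9 and 11.0 in heterozygous larvae (0.14, adjusted p = 0.922).

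Noncoding RNAs were among the clearest calls. pncr009:3L (hpRNA:CR33940), a hairpin RNA of the class that is cut into endogenous small interfering RNAs, on 3L at 19486745-19488439, had 4.73, 3.91 and 4.71 FPKM in wild type larvae and 27.4, 32.0 and 31.7 in heterozygous larvae. It rose by 2.53 (SE 0.11, adjusted p = 0.000221), the smallest adjusted p of the comparison. The long noncoding RNA CR42861, on X at 13744928-13745476, rose from 2.17, 1.58 and 1.21 FPKM to 10.03, 13.6 and 12.9, by 2.32 (SE 0.16, adjusted p = 0.00133). The groups lay far apart at both, and neither call was lost without any 1 library.

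A further pair of noncoding RNAs rose with less support. CR40469, a long noncoding RNA near the tip of X at 122493-122706, had 0, 1.56 and 1.87 FPKM in wild type larvae and 13.6, 20.03 and 21.2 in heterozygous larvae (3.29, SE 0.41, adjusted p = 0.0266). Su(Ste):CR42422, a copy of the repeated Y-linked Suppressor of Stellate genes, had 0.824, 1.31 and 1.53 FPKM and 4.77, 3.93 and 5.28 (1.36, SE 0.17, adjusted p = 0.0266). Reads of such repeats could belong to more than 1 copy, so its level is uncertain. The share of males is not in the labels, and its part in this result was not tested. The male dosage compensation RNA roX1 had 123, 95.4 and 153 FPKM in wild type larvae and 90.4, 137 and 123 in heterozygous larvae, which overlap. The CR40469 call ended on leaving out wild type 3, a heterozygote, or homozygote 1 or 3 (adjusted p up to 0.181), and the Su(Ste):CR42422 call on leaving out a wild type, a heterozygote or homozygote 3 (adjusted p up to 0.179).

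CG32640 and CG32641, neighbouring protein-coding genes on X 5955 bases apart, rose together from near the floor. CG32640, at 13178005-13178523, had 0, 0 and 0.199 FPKM in wild type larvae and 3.85, 3.81 and 3.89 in heterozygous larvae (2.19, SE 0.14, adjusted p = 0.00133). CG32641, at 13184478-13184996, had 0.767, 0.487 and 0.797 FPKM and 7.54, 10.2 and 7.38 (2.47, SE 0.16, adjusted p = 0.00133). The wild types were near 0 and the heterozygotes well above at both. The annotated genes are equal in length, and if they are copies of each other the deposited values could divide shared reads between them.

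GstT3 and Mrp4 rose as well. GstT3, a theta class glutathione S-transferase on X at 20467455-20469796, had 14.7, 14.4 and 12.01 FPKM in wild type larvae and 38.3, 40.1 and 36.8 in heterozygous larvae (1.43, SE 0.11, adjusted p = 0.00256). Mrp4, an ABC transporter of the multidrug resistance protein family on 3R, had 4.88, 7.02 and 4.88 FPKM and 19.2, 14.9 and 15.6 (1.42, SE 0.16, adjusted p = 0.0179). The means were 2.8 and 2.96 times those of the wild type, with no overlap at either gene. The GstT3 call held without each library in turn, and the Mrp4 call ended on leaving out wild type 1 or 3 or a heterozygote (adjusted p up to 0.125) and with only the 6 libraries fitted (adjusted p = 0.0798). Of the 35 tested glutathione S-transferase genes GstT3 was the 1 past the threshold, and the list had a median difference of 0.03, which was below 0 after quantile normalization and without wild type 1, wild type 3 or heterozygote 1. The next were GstO3, with 140, 147 and 153 FPKM in wild type larvae and 91.1, 92.2 and 93.9 in heterozygous larvae (−0.66, adjusted p = 0.104), and GstO2, with 66.7, 81.1 and 64.3 against 136, 107 and 106 (0.71, adjusted p = 0.264).

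CG13822 (GILT3), a member of the lysosomal thiol reductase family on 3R at 23677358-23678421, rose to 3.12 times its wild type mean. It had 5.16, 4.49 and 4.78 FPKM in wild type larvae and 15.5, 15.4 and 14.1 in heterozygous larvae (1.46, SE 0.10, adjusted p = 0.00133). CG31226, on 3R, had 10.1, 12.6 and 11.6 FPKM and 34.2, 62.8 and 70.5 (2.14, SE 0.26, adjusted p = 0.0266). No wild type came near a heterozygote at either gene. The CG31226 call ended on leaving out a wild type, heterozygote 2 or 3, or homozygote 1 or 3 (adjusted p up to 0.177), whereas that of CG13822 held.

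Smaller rises were found at CG3434, mago and Pa1. CG3434, on 3L at 9459369-9460799, had 11.2, 10.8 and 10.2 FPKM in wild type larvae and 19.4, 19.1 and 19.5 in heterozygous larvae (0.79, SE 0.07, adjusted p = 0.00389), and held without each library. The gene mago, which encodes a subunit of the exon junction complex that marks spliced RNA, had 10.5, 10.4 and 9.86 FPKM and 23.9, 23.2 and 19.0 (1.02, SE 0.10, adjusted p = 0.0130). Pa1, a subunit of a histone H3 lysine methyltransferase complex, had 8.54, 7.81 and 9.08 FPKM and 13.4, 17.4 and 16.0 (0.80, SE 0.11, adjusted p = 0.0490). In each of the 3 genes the lowest heterozygote was above the highest wild type. The mago call ended on leaving out wild type 1 or 3 or heterozygote 1 or 2 (adjusted p up to 0.106) and with only the 6 libraries fitted (adjusted p = 0.0646), and the Pa1 call without each of the 9 libraries (adjusted p from 0.0594 to 0.297).

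CG34026, on X at 9533818-9534625, was the 1 fall that held without each library in turn. It had 198, 326 and 229 FPKM in wild type larvae and 64.0, 65.3 and 51.7 in heterozygous larvae (−2.02, SE 0.18, adjusted p = 0.00628). In the homozygotes it was listed at 0.134, 0 and 0 FPKM, lower still than in the heterozygotes. With only the 6 libraries fitted the adjusted p was 0.0655, and with a pseudocount of 0.1 it was 0.107.

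The other falls rested on more of the libraries. The merged locus CG43221/CG43645 on 2L had 17.3, 38.3 and 15.7 FPKM in wild type larvae and 3.92, 1.83 and 1.55 in heterozygous larvae (−2.80, SE 0.39, adjusted p = 0.0490). It stood alone among the 23 in that the homozygotes, with 31.1, 19.1 and 19.7 FPKM, were above the heterozygotes (2.85, adjusted p = 0.00452) and overlapped the wild types. CG4880, on X, had 17.7, 14.6 and 15.8 FPKM in wild type larvae and 9.93, 10.5 and 9.72 in heterozygous larvae (−0.62, SE 0.09, adjusted p = 0.0490). The CG43221/CG43645 call was lost without each of the 9 libraries (adjusted p from 0.0503 to 0.280), and the CG4880 call without each except wild type 2 (adjusted p up to 0.297).

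A pair of weak X-linked loci were listed at 0 in every heterozygote. Both reached 1 FPKM in the 3 wild types alone, so they met the filter only through the genotype in which they are high. CG42578, at 20446371-20446703, had 2.04, 2.59 and 1.75 FPKM in wild type larvae (adjusted p = 0.0177). The small nucleolar RNA snoRNA:Psi28S-1135a, of the kind that guides pseudouridine formation in ribosomal RNA, had 2.13, 2.62 and 1.53 FPKM in wild type larvae (adjusted p = 0.0179). Both calls ended on leaving out wild type 1 or 3 or a heterozygote, and the small nucleolar RNA also without homozygote 3 (adjusted p up to 0.132 and 0.137). They also ended with a pseudocount of 0.1 (adjusted p = 0.107 for each), after quantile normalization and with only the 6 libraries fitted (adjusted p = 0.0646 and 0.0798). No locus was listed at 0 in every wild type with 1 FPKM or more in every heterozygote. Small RNA genes made up 27 of the 31 loci that had 10 FPKM or more in 1 of the 6 libraries and 0 in another, so that a 0 at such a gene is weak evidence of absence. CR45714, an antisense RNA that overlaps the immune protease gene Hayan on X, had 2.54, 2.52 and 2.16 FPKM in wild type larvae and 0.696, 0.317 and 0.538 in heterozygous larvae (−1.17, SE 0.16, adjusted p = 0.0420). It too met the filter only through the wild types. Whether the reads were counted by strand is not given in the sources used here, so the antisense RNA and Hayan cannot be told apart, and the call was lost without each of the 9 libraries (adjusted p from 0.0642 to 0.255).

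**Figure D2:**
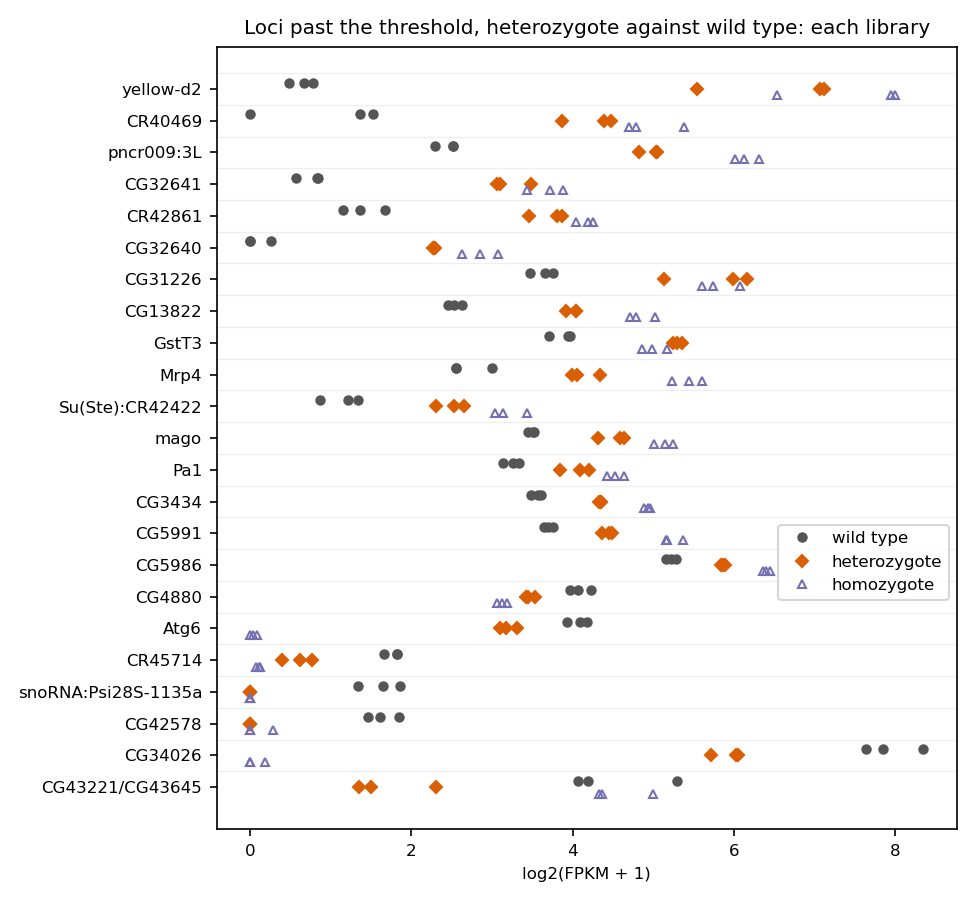
Each row is 1 of the 23 loci past the threshold, ordered by change, and each symbol is 1 library on the axis of log2(FPKM + 1): wild type (grey circles), heterozygote (orange diamonds) and homozygote (open triangles). Wild type and heterozygote symbols do not overlap in any row, and in CG43221/CG43645 the homozygotes return to the wild type side.

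The homozygotes, compared with the same wild types, give values to set beside these. In pncr009:3L (78.5, 68.8 and 63.9 FPKM) and CG13822 (25.1, 31.6 and 26.7) the homozygotes were above the heterozygotes, by 1.18 (adjusted p = 0.000861) and 0.84 (adjusted p = 0.00244). Mrp4, with 47.7, 42.5 and 36.8 FPKM, was above them by 1.30 (adjusted p = 0.00311), and mago, with 34.5, 31.3 and 37.0, by 0.62 (adjusted p = 0.0124). Pisd (40.5, 34.6 and 35.1 FPKM), CG5986 (83.5, 86.7 and 81.0) and CG3434 (29.7, 28.6 and 30.2) were above them by 0.80, 0.54 and 0.59 (adjusted p = 0.00141, 0.00372 and 0.00198). Smaller steps past the threshold were found at CG32640 (5.2, 7.41 and 6.21 FPKM), Su(Ste):CR42422 (7.18, 9.77 and 7.8 FPKM) and Pa1 (20.5, 23.8 and 22 FPKM), by 0.57, 0.71 and 0.48 (adjusted p = 0.0489, 0.0443 and 0.0411). Several loci that rose had no step past the threshold. At yellow-d2 and CR40469 the homozygotes were above the heterozygotes by 0.91 (SE 0.51) and 0.71 (SE 0.41), with adjusted p = 0.284 and 0.289. GstT3, with 35.2, 28.2 and 30.6 FPKM in the homozygotes, lay 0.29 below the heterozygotes on the log2 scale (−0.29, adjusted p = 0.153), and CG31226, with 52.7, 66.4 and 47.6 FPKM, differed by 0.04 (adjusted p = 0.930). CR42861, with 18.1, 17.3 and 15.5 FPKM, and CG32641, with 9.79, 13.8 and 12.2, differed from the heterozygotes by 0.45 and 0.46 (adjusted p = 0.136 for each).

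The X chromosome held a larger share of the calls than the autosomes. On X, 11 of 1744 tested loci (0.631%) were past the threshold, 6 higher and 5 lower, against 11 of 9140 (0.12%) on the autosomes, where 9 were higher and 2 lower. The share with an unadjusted p under 0.05 was 8.37% on X and 5.20% on the autosomes, and the share without overlap was 17.1% and 13.9%. The median difference of X-linked loci was 0.01, so the arm as a whole was not shifted. Arm 3R, which carries Atg6, held 6 calls of 2684 loci (0.224%), 3 of them Atg6 and the genes that adjoin it, and arms 2L, 2R and 3L held 1, 2 and 2. No test was made of the difference between arms, and a difference between the X chromosomes of the stocks cannot be told apart from an effect of the Atg6 genotype.

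**Figure D3:**
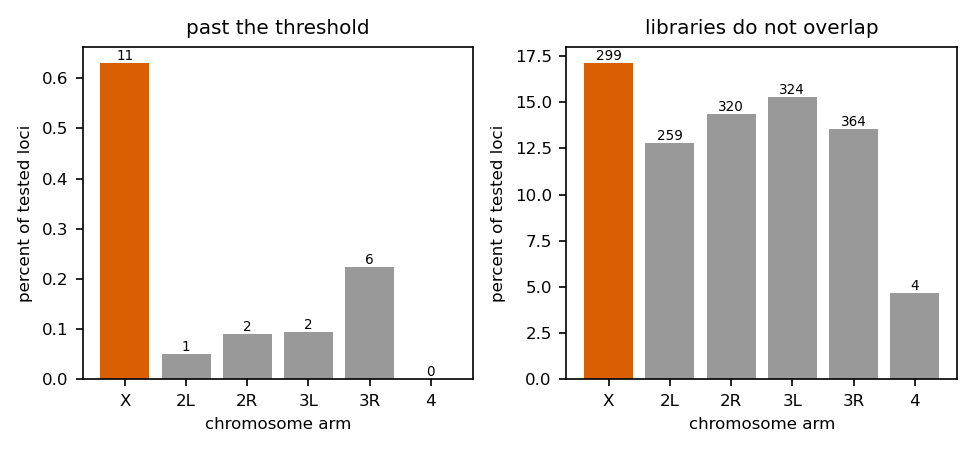
Bars give the percentage of tested loci on each chromosome arm that were past the threshold (left) and that had no overlap between the 3 heterozygote and 3 wild type libraries (right), with the number of loci above each bar and X in orange. X stands highest in both panels, at 0.631% and 17.1%; the 3 tested Y loci, of which 1 was past the threshold, are not drawn.

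Most neighbours of the called loci overlapped between the genotypes. Of 130 tested loci within 20 kb of a called locus and not called themselves, 16 (12.3%) had an unadjusted p under 0.05 and 29 (22.3%) had no overlap, against 5.71% and 14.4% of all loci. On X, the merged locus CG1695/CG32506, which overlaps CG42578 and ends 390 bases from GstT3, had 3.95, 2.68 and 4.24 FPKM in wild type larvae and 1.30, 1.16 and 1.23 in heterozygous larvae (−1.04, adjusted p = 0.0722). On 3L, CG3552, which overlaps CG3434, had 10.7, 6.91 and 7.41 FPKM against 15.5, 16.98 and 17.4 (0.94, adjusted p = 0.0922), and CG33926, 12981 bases from CG3434, had 17.6, 25.6 and 19.3 against 38.3, 41.9 and 41.7 (0.95, adjusted p = 0.104). Beside CR45714 the protease genes Hayan and psh, which act upstream of Toll, had differences of opposite sign that did not pass the threshold, Hayan at −0.43 (adjusted p = 0.621) and psh at 0.59 (adjusted p = 0.353).

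Many loci with large differences did not pass the threshold, and their libraries spread widely. A difference of at least 1 was seen at 294 tested loci, of which 17 passed. Differences of any size without overlap were found at 1571 tested loci (14.4%), 898 of them higher (8.25%). Among these, 1265 uncalled loci averaged 5 FPKM or more in the higher genotype, 760 of them higher in the heterozygote. The highest difference among them was in CG34278 on 3R, with 0.213, 2.97 and 0.330 FPKM in wild type larvae and 90.0, 54.6 and 45.02 in heterozygous larvae (5.05, SE 0.76, adjusted p = 0.0722). It passed without homozygote 2 and after quantile normalization, with adjusted p down to 0.0195 among the fits that left out a library. CG45079, which lies close by, at 17124477-17124786 against 17120465-17120808, had 1.56, 11.9 and 2.82 FPKM against 14.5, 38.6 and 19.9 (2.22, adjusted p = 0.488). The cuticle protein genes Cpr65Av, with 10.01, 55.0 and 19.4 FPKM in wild type larvae and 676, 406 and 274 in heterozygous larvae, and Edg78E, with 1.62, 10.4 and 2.21 against 32.9, 15.9 and 13.3, differed by 4.19 and 2.14 (adjusted p = 0.399 and 0.835). The esterase gene alpha-Est2 had 13.8, 33.7 and 16.8 FPKM against 146, 89.1 and 99.9 (2.40, adjusted p = 0.321). In CG34278, CG45079, Cpr65Av, Edg78E and alpha-Est2 wild type 2 was the highest of the wild types. It was the lowest of them at CG31041, with 8.28, 3.11 and 5.86 FPKM in wild type larvae, and CG13461, with 5.27, 0.495 and 0.990. These 2 genes were also among the 10 highest uncalled differences.

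Amyrel and Lip3 were among the lowest differences that did not pass. Amyrel, an amylase-related gene, had 9.81, 29.5 and 8.42 FPKM in wild type larvae and 0.762, 1.43 and 1.39 in heterozygous larvae (−2.75, SE 0.48, adjusted p = 0.112). Lip3, a lipase, had 3.98, 15.5 and 6.56 FPKM against 0.680, 0.957 and 1.23 (−2.13, adjusted p = 0.631). Wild type 2 was the highest library at both. At CG5171 (−2.84, adjusted p = 0.629), by contrast, wild types 1 and 3 were high with 288 and 188 FPKM, and wild type 2, with 27.1, lay close to the heterozygotes at 16.3, 17.97 and 11.7.

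Genes of autophagy other than Atg6 gave no call. Of the 6 members of the Atg6 lipid kinase complex list Atg6 alone was past the threshold, and the other 5 lay between −0.21 and 0.03. The kinase gene Pi3K59F, merged with CG30184, had 10.6, 8.51 and 8.91 FPKM in wild type larvae and 7.34, 7.65 and 8.89 in heterozygous larvae. Atg14 had 18.6, 17.4 and 18.4 against 16.95, 17.7 and 17.5, and Uvrag had 12.7, 10.6 and 10.7 against 11.4, 11.2 and 10.9. The 2 genotypes overlapped at all 3 loci.

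Of 31 other autophagy genes 0 were past the limma threshold, 1 had an unadjusted p under 0.05, and the median difference was 0.02, or slightly below 0 with library weights. Single differences ran from −0.63 to 0.32. Without overlap were 5 that were higher and 1 that was lower, 19.4% against 14.4% of all loci. Higher were Atg12, the ubiquitin-like tag of the conjugation machinery, with 15.3, 13.2 and 17.5 FPKM against 19.5, 19.8 and 18.3 (0.32, adjusted p = 0.783), and ref(2)P, the fly p62 cargo receptor, with 147, 124 and 129 against 151, 152 and 156 (0.20, adjusted p = 0.835). Lower was Atg1, the kinase that starts autophagy, with 18.1, 12.6 and 17.6 against 11.9, 12.03 and 11.5 (−0.40, adjusted p = 0.835). Atg8a, the membrane mark of autophagosomes, had 475, 619 and 571 against 591, 609 and 571.

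The lysosome, endosome and proton pump lists, which do not include CG13822, held no call. In the 23 lysosome genes, 28 endosome genes and 29 proton pump (V-ATPase) genes 0 were past the limma threshold, with 1, 0 and 0 at an unadjusted p under 0.05 and 8.70, 21.4 and 0% without overlap. The list medians were 0.04, −0.01 and 0.18, the first below 0 after quantile normalization and the second above 0 without wild type 3 or heterozygote 2. Npc2b, a sterol-binding protein, had 41.1, 64.0 and 50.6 FPKM in wild type larvae and 72.1, 72.6 and 79.8 in heterozygous larvae (0.54, adjusted p = 0.532). The protease gene cathD had 607, 665 and 662 FPKM against 651, 649 and 750, which overlap.

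Ribosomal protein genes lay higher in the heterozygote by a small, even amount. Of 89 tested cytoplasmic ribosomal protein genes 70 had no overlap and were higher and 0 were lower (78.7% against 14.4% of all loci), and 26 had an unadjusted p under 0.05, all of them higher. The median difference was 0.26, and 0 genes were past the limma threshold. RpL34b had 601, 662 and 623 FPKM in wild type larvae and 938, 808 and 878 in heterozygous larvae (0.47, adjusted p = 0.353). RpL35A had 759, 802 and 696 against 1034, 911 and 1014 (0.39, adjusted p = 0.592). Below 0 were 4 genes, and these were weak paralogs, RpL10Aa, RpL37b, RpS10a and RpS19b, at −0.37 to −0.04. The direction depended on the scaling: after quantile normalization, which shifted the median of all loci to 0.01, the list median was −0.01, so the list lay higher on the deposited scale and not on the other. In the homozygotes the list median was 0.67 on the deposited scale.

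Proteasome genes lay lower by a like amount. Of 30 tested subunit genes 29 had no overlap and were lower (96.7% against 14.4% of all loci). The remaining gene was also below 0, so that all differences fell between −0.37 and −0.17, with a median of −0.25. By the limma test 0 were past the threshold and 0 had an unadjusted p under 0.05. Rpn9, of the regulatory particle, had 203, 167 and 196 FPKM in wild type larvae and 132, 151 and 153 in heterozygous larvae (−0.37, SE 0.24). Prosbeta5, a catalytic subunit of the core, had 257, 241 and 262 against 199, 228 and 227 (−0.22, SE 0.20, adjusted p = 0.835). The list median stayed between −0.39 and −0.22 under the alternative settings.

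**Figure D4:**
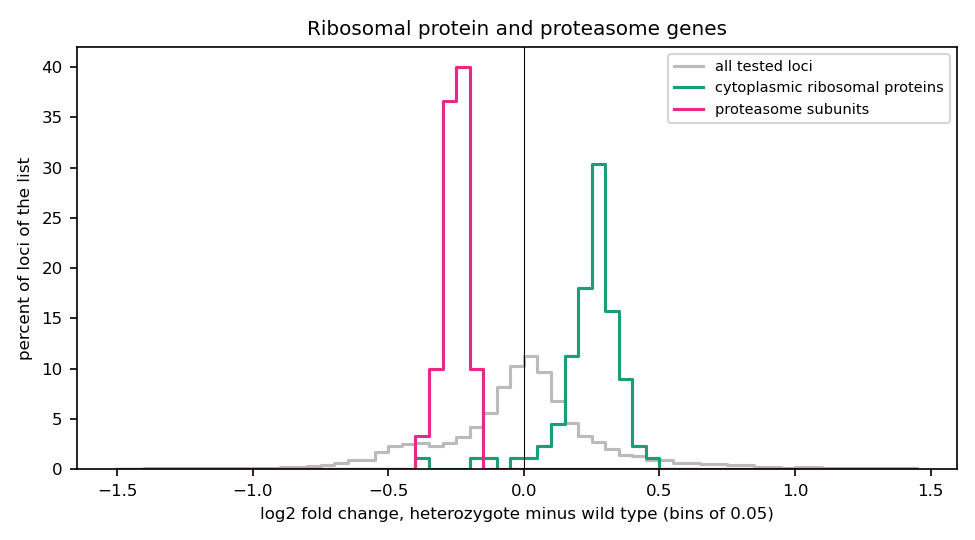
Outlines give the percentage of loci in bins of the log2 fold change, heterozygote minus wild type, for all tested loci (grey), 89 cytoplasmic ribosomal protein genes (green) and 30 proteasome subunit genes (pink). The proteasome genes lie in a narrow band around −0.25 and the ribosomal protein genes around 0.26 on the deposited scale; after quantile normalization the ribosomal protein median is −0.01.

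Heat shock genes were lower in most members and passed in none. Of 16 tested genes all but 1 were below 0, with a median of −0.37, 3 had no overlap (18.8%) and 2 had an unadjusted p under 0.05. Hsp83, the fly Hsp90 chaperone, had 325, 324 and 379 FPKM in wild type larvae and 156, 241 and 281 in heterozygous larvae (−0.64, adjusted p = 0.827). The small heat shock gene Hsp67Bc had 34.9, 14.1 and 29.4 against 8.76, 13.8 and 11.8 (−1.05, adjusted p = 0.802). The constitutive chaperone gene Hsc70-4 had 1249.9, 1256 and 1385 against 1158, 1241 and 1312, which overlap.

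Genes of muscle and energy metabolism differed more between libraries than between genotypes. Lists were summed up per library by the median of each gene's log2(FPKM + 1) minus its mean over the 6 libraries. For 20 contractile muscle genes this was −0.79, 0.51 and −0.53 in wild type larvae and 0.70, 0.08 and 0.11 in heterozygous larvae, and for 14 glycolysis genes it was −0.84, 0.50 and −0.62 and then 0.79, 0.06 and 0.12. Wild type 2 and heterozygote 1 were high in both lists, and wild types 1 and 3 were low. The median differences were 0.58 and 0.60, with 0 loci past the limma threshold, 0 with an unadjusted p under 0.05 and 0 without overlap in either list. Mlc2, a myosin light chain, had 611, 1637 and 681 FPKM in wild type larvae and 2196, 1346 and 1455 in heterozygous larvae (0.89, adjusted p = 0.835). All 53 respiratory chain genes were above 0, with a median of 0.35, and 1 had no overlap (1.89%). In whole larvae fewer cells of a type and less RNA per cell cannot be told apart, here and in each tissue list below.

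**Figure D5:**
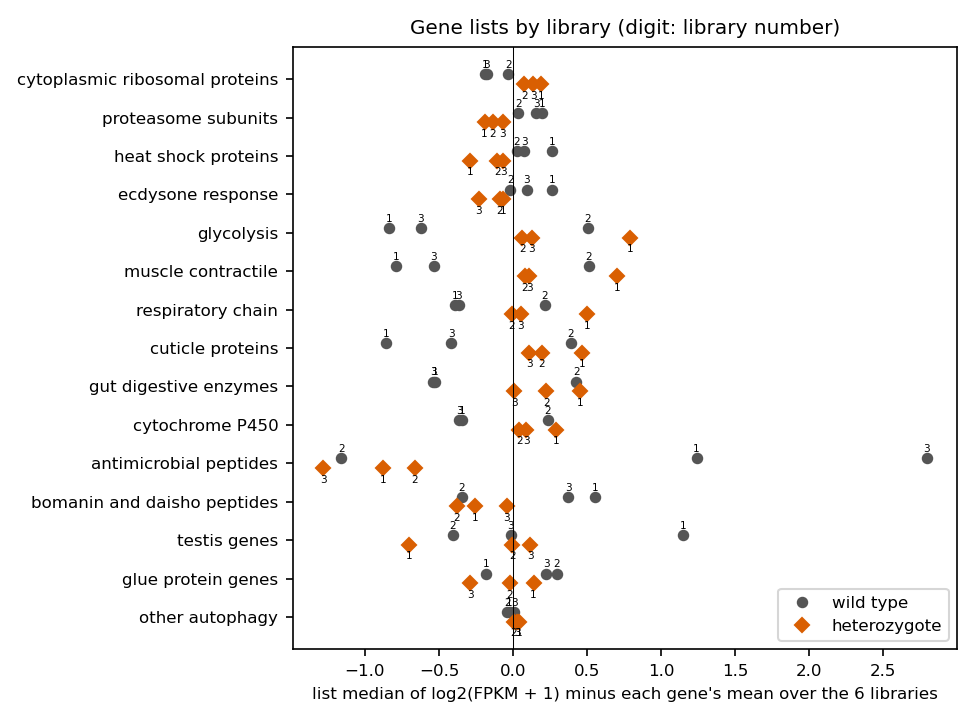
Each symbol is 1 library, numbered by its replicate, and gives the median over a list of log2(FPKM + 1) minus each gene's mean over the 6 libraries; wild types are grey circles and heterozygotes orange diamonds. The genotypes separate in the ribosomal protein, proteasome, heat shock and ecdysone response lists, whereas in the glycolysis, muscle, antimicrobial peptide and testis lists single wild types lie farther apart than the genotypes. All values are on the deposited scale, and after quantile normalization the median difference of the ribosomal protein list was −0.01.

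Digestive enzymes of the gut differed in both directions, with none past the threshold. Of 45 tested genes 12 were higher and 5 lower without overlap (37.8% against 14.4% of all loci), with 9 and 3 at an unadjusted p under 0.05 and 0 past the limma threshold. The higher ones included serine proteases of the Jonah family. Jon65Aii had 317, 331 and 250 FPKM in wild type larvae and 687, 606 and 692 in heterozygous larvae (1.15, adjusted p = 0.389), and Jon66Ci had 3387, 4649 and 2992 against 7048, 6245 and 7059 (0.91, adjusted p = 0.436). Among the lower ones, wild type 2 was the highest library at both genes given here. The amylase gene Amy-p had 54.7, 171 and 44.4 FPKM against 29.4, 25.6 and 25.1 (−1.46, adjusted p = 0.584), and the maltase gene Mal-A7 had 1.01, 4.13 and 1.38 against 0.245, 0.505 and 0.319 (−1.10, adjusted p = 0.582). Similar members of both families could share reads, so single values are uncertain.

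Detoxifying cytochrome P450 genes spread both ways. Of 61 tested genes 11 were higher and 3 lower without overlap (22.95%), the median difference was 0.26, and 0 were past the limma threshold, with 7 and 2 at an unadjusted p under 0.05. Nearest to it was Cyp6g1, known from insecticide resistance, merged here with CG13175, with 57.6, 43.9 and 59.1 FPKM in wild type larvae and 25.8, 30.8 and 32.5 in heterozygous larvae (−0.82, SE 0.14, adjusted p = 0.112). Cyp6t1 had 2.79, 9.36 and 3.92 FPKM against 13.5, 12.4 and 11.2 (1.20, adjusted p = 0.547). Per library the list median was low in wild types 1 and 3, at −0.34 and −0.36, and 0.23 in wild type 2 against 0.04 to 0.29 in heterozygous larvae.

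Antimicrobial peptide genes were high in some wild types. The list median per library was 1.24, −1.16 and 2.79 in wild type larvae and −0.88, −0.66 and −1.28 in heterozygous larvae, so that wild type 2 lay among the heterozygotes. Of 16 tested genes all but 1 were below 0 and the median difference was −1.72, yet 2 had no overlap (12.5%), 3 had an unadjusted p under 0.05 and 0 were past the limma threshold. AttC, an attacin, had 59.7, 20.1 and 273 FPKM in wild type larvae and 13.5, 11.0 and 6.62 in heterozygous larvae (−2.68, adjusted p = 0.699). DptB, a diptericin, had 115.02, 5.67 and 232 against 11.1, 1.59 and 6.26 (−3.21, adjusted p = 0.835).

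The bomanin and daisho genes, short peptide genes switched on by Toll, gave no call in the heterozygote. Of 14 tested genes 0 were past the limma threshold, 0 had an unadjusted p under 0.05 and 0 were free of overlap, with a median of −0.53. With the filter set on the 6 compared libraries alone, 7 genes remained, with a median of −0.76. The others met the filter only with homozygote libraries counted, so they could hardly give a call in the heterozygote. The median in the homozygotes against the same wild types was 4.63, with 12 genes past the threshold. CG18067 (Bbd) was named as the most abundant member of the list. It had 103, 66.9 and 119 FPKM in wild type larvae and 67.3, 94.8 and 132 in heterozygous larvae. The homozygotes had 183, 444 and 286 FPKM, a change of 1.60 from the wild types, smaller than the list median. At this gene the heterozygotes overlapped the wild types, while each homozygote was above both genotypes.

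Upstream of these peptides, PGRP-SD, a secreted peptidoglycan receptor, had 47.3, 34.7 and 65.7 FPKM in wild type larvae and 21.01, 16.01 and 24.0 in heterozygous larvae (−1.21, SE 0.26, adjusted p = 0.282). PGRP-LF, a membrane protein that damps the Imd pathway, had 5.35, 4.57 and 5.82 against 6.85, 8.33 and 7.999 (0.48, SE 0.10, adjusted p = 0.264). Neither was past the threshold, and the groups did not overlap at either. The 21 Toll pathway genes had a median of 0.04, with sign changes without wild type 1, without heterozygote 1 and with 1 of the library weightings, and the 18 genes of Imd and peptidoglycan recognition had a median of 0.09.

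Markers of blood cells gave no calls in the heterozygote. Among 14 plasmatocyte, 8 lamellocyte and 5 crystal cell markers 0 were past the limma threshold, with 1, 1 and 0 at an unadjusted p under 0.05. Medians were 0.04, −0.05 and 0.25. Those of the plasmatocyte and crystal cell lists were below 0 without wild type 1, that of the plasmatocytes also without heterozygote 3, and that of the lamellocytes was above 0 with library weights. NimC1, a phagocytosis receptor of plasmatocytes, had 27.1, 27.0 and 28.14 FPKM against 17.5, 24.6 and 25.6 (−0.29, adjusted p = 0.835). He, found on larval blood cells, had 95.4, 117.5 and 103 against 73.4, 107 and 101, and 444, 429 and 341 in the homozygotes. The filamin gene cher, on the lamellocyte list, had 234, 207 and 253 against 193, 159 and 156 (−0.45, adjusted p = 0.510).

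Genes that respond to ecdysone had a median below 0, and those that make it a median near 0. The ecdysone response list had medians of 0.26, −0.02 and 0.09 in wild type larvae and −0.07, −0.09 and −0.23 in heterozygous larvae, with 5 of 17 genes lower and 1 higher without overlap (35.3%). By the limma test 0 were past the threshold and 1 had an unadjusted p under 0.05. ImpE3 had 24.3, 10.03 and 16.3 FPKM in wild type larvae and 8.37, 8.29 and 8.05 in heterozygous larvae (−0.87, adjusted p = 0.835). Of 12 ecdysteroid synthesis genes 2 were higher and 3 lower without overlap (41.7%), the median was −0.03, or above 0 after quantile normalization and without wild type 1, wild type 3 or heterozygote 3, 0 were past the limma threshold and 3 had an unadjusted p under 0.05. Among them dib had 2.11, 1.87 and 2.54 FPKM against 0.794, 1.18 and 0.865 (−0.70, SE 0.17, adjusted p = 0.353), and phm had 23.8, 27.4 and 32.6 against 19.5, 22.5 and 15.2 (−0.54, adjusted p = 0.835). The gene shd, whose product makes the active hormone in peripheral tissues, had 43.6, 60.5 and 45.8 against 70.2, 64.1 and 63.0 (0.40, adjusted p = 0.621).

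Salivary gland, epidermal and testis lists also held no call. Of 11 glue protein genes 2 were higher and 2 lower without overlap (36.4% against 14.4% of all loci), 1 had an unadjusted p under 0.05, and the median was −0.17. The glue gene Sgs3 had 3408, 5584 and 4181 FPKM against 4817, 4042 and 3418, and CG7587 had 2228, 2838 and 3782 against 963, 969.7 and 685 (−1.74, SE 0.80, adjusted p = 0.835). Of 35 cuticle protein genes 3 were higher and 2 lower without overlap (14.3%) and an unadjusted p under 0.05 was found in 1, the median was 0.41, and wild type 1, at −0.86, was the lowest library. Of 39 testis genes 2 were above 0 and the others below, with a median of −0.43 that was −0.0036 without wild type 1, and 0 had an unadjusted p under 0.05. The testis median by library was 1.15 in wild type 1 and between −0.70 and 0.11 in the other 5 libraries.

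Nutrient signalling and lipid lists held more loci without overlap than the background and 1 call. Of 22 insulin and TOR signalling genes 4 were higher and 2 lower without overlap (27.3% against 14.4% of all loci), the median was 0.07, 0 were past the limma threshold and 3 had an unadjusted p under 0.05. Sesn, the stress-induced inhibitor of TOR, had 38.9, 37.3 and 41.5 FPKM in wild type larvae and 24.7, 26.6 and 24.9 in heterozygous larvae (−0.61, SE 0.15, adjusted p = 0.399). Thor, the translation repressor 4E-BP, had 1128, 833 and 1101 against 1040.5, 1142 and 1161, which overlap. Of 20 lipid storage and synthesis genes Pisd, beside Atg6, was the 1 past the threshold, 5 were higher and 1 lower without overlap (30.0%, Pisd included), and 16 were above 0 with a median of 0.24. Among the rest, the lipase gene bmm had 27.5, 33.8 and 29.0 FPKM against 54.6, 47.7 and 36.0 (0.58, adjusted p = 0.835). Among the 917 tested loci on any of the 39 lists, 4 were past the threshold, against 23 of all 10887 (0.211%). They were Atg6 itself, Pisd, which adjoins it, GstT3 and yellow-d2.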

How the data were processed

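FPKM per locus were deposited by the authors, and the unit is per the file headers. The build dm6 and the tools limma, Cufflinks 2.2.1 and HISAT2 2.1.0 stand in the submitters' processing notes, without their roles. The sources used here give neither the annotation nor whether reads were counted by strand. The deposited table had 50244 lines for 15809 loci, of which 1 line per locus was kept, and 818 loci carry more than 1 gene name, so that their genes cannot be separated. Depth is unknown, and the 3 libraries per genotype limit the precision.

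Loci at 1 FPKM or more in at least 3 of 9 libraries were tested on log2(FPKM + 1) with limma 3.58.1 in R 4.3.3 (lmFit, contrasts.fit, eBayes with trend), the 3 genotypes fitted together, with Benjamini-Hochberg adjustment over the 10887 loci and a threshold of 0.05. The steps were tested on simulated data. Named genes are Atg6, the white locus and loci within 20 kb of Atg6, every locus past the threshold, the 10 highest and 10 lowest differences among uncalled loci without overlap and with a mean of at least 5 FPKM, and, for each list, its called members or its most abundant one. Not every one is printed, and other list members were named after their values were seen. The 39 lists (1033 entries, 9 with no locus) are from general knowledge of the fly, and the comparison and the lists were chosen with earlier results of these data known. Lists are described by counts and medians and were not tested. Positions are from the Ensembl 115 annotation of BDGP6 by symbol, where 16319 of the 16509 names found there were at most 5000 bases from the authors' locus; current symbols stand in parentheses. Alternatives were pseudocounts of 0.1 and 5, other filters, median-of-ratios and quantile scaling, a robust fit, no trend, library weights, the 6 libraries alone, a replicate block, an adjusted p under 0.01, a 2-fold minimum and leaving out each library.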

Additional observations from a re-analysis of the deposited data

How the results depend on the processing

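Pseudocount 5, other filters, median-of-ratios and quantile scaling, no trend, a robust fit and a 2-fold minimum gave 17 to 25 calls, against 23 reported. The loci were not all the same. Of the 23, 20 stayed with pseudocount 5, no filter on low values, a 5 FPKM filter or no trend, and 18 with quantile normalization. No called difference of a named gene changed sign under any setting run. With only the 6 libraries fitted the count was 8 (8 higher, 0 lower by limma, with 395 lower at an unadjusted p under 0.05), all among the 23. With a pseudocount of 0.1 it was 16, of which 0 were lower (239 lower at an unadjusted p under 0.05). At an adjusted p under 0.01 it was 9 (8 higher, 1 lower). Without 1 library at a time the count ran from 9 to 31, with 8 to 21 higher and 1 to 13 lower. Library weights gave 2106 (1273 higher, 833 lower), but limma's default estimate stopped before it converged, with weights from 0.154 to 78.7; the gene-by-gene method, added after the data were seen, used weights of 0.278 to 5.15 and gave 485 (262 higher, 223 lower), and both included all 23. A block for the replicate number gave 9 (8 higher, 1 lower), all among the 23. The numbers did not pair the samples: deviations of same-numbered wild types and heterozygotes correlated at −0.65, −0.47 and 0.04, so the samples share only a number. Outside the weighted fits, the values of single named genes stayed on their side of the threshold in 1541 cases, lost a call in 145 and gained one in 5, and 24 uncalled values moved by more than the spread between replicates; the cause was not tested. Depth limits what the weakest loci show, since FPKM carries no counts.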

Other observations

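Further gene groups also held no call. Of 73 mitochondrial ribosomal protein genes 6 were higher and 0 lower without overlap (8.22% against 14.4% of all loci), with a median of 0.05 and 0 past the limma threshold, and 1 had an unadjusted p under 0.05. Of 14 neuron and glia genes 2 were higher without overlap (14.3%), 1 had an unadjusted p under 0.05 and 0 were past the limma threshold. The synaptic gene Syt1 had 24.0, 31.0 and 32.1 FPKM in wild type larvae and 29.1, 30.2 and 38.5 in heterozygous larvae. Of 16 basement membrane and collagen genes 1 was lower without overlap (6.25%), and 0 were past the limma threshold or had an unadjusted p under 0.05. The collagen gene Cg25C (Col4a1) had 66.7, 101 and 72.1 FPKM against 91.7, 78.1 and 94.7, which overlap.

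Stress and sex-linked genes gave values of the same kind. TotA, a secreted stress peptide, had 1334, 1389 and 1375 FPKM in wild type larvae and 859.8, 951 and 1361 in heterozygous larvae (−0.40, adjusted p = 0.835). Of 12 dosage compensation and sex determination genes 0 were past the limma threshold, 0 had an unadjusted p under 0.05 and 0 were free of overlap, and roX2 had 35.6, 25.2 and 45.3 FPKM against 16.0, 33.1 and 33.2. The yolk protein gene Yp3, on X near CR42861, had 1.14, 10.3 and 0.823 FPKM in wild type larvae, 22.9, 11.7 and 10.4 in heterozygous larvae and 2.09, 0.461 and 3.99 in the homozygotes (2.1 in the heterozygote, adjusted p = 0.715). Of the yellow family and pigment list, yellow-b had 63.9, 39.8 and 75.7 FPKM against 28.6, 38.5 and 36.8 (−0.73, adjusted p = 0.727), while yellow-d2 rose as given above.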
